A study of Mus musculus with 4 samples.

Results

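The genes described here are 40 genes of the secretory pathway and the unfolded protein response (UPR), listed by symbol, all of which are among the 33696 features of the matrices. They were followed in plasma cells of KPC tumors, a mouse pancreatic cancer line grown under the skin of young adult male C57BL/6NHsd mice. Live CD45+ cells were sorted from 4 groups: Untreated, STING agonist (ADU-S100, injected into the tumor), LTbR agonist (the antibody 4H8 against the lymphotoxin-β receptor, given into the peritoneum; anti-LTβR below) and both agents (combination). Tumors were pooled within a group before sorting, so each group is 1 library with no replicate, and neither mice nor tumors can be told apart. By the study's methods the single-cell work was repeated in a separate experiment, and each experiment held a pool of every treatment group. The sources used here do not say which experiment gave each library, so whether the 4 libraries share 1 experiment is not known. If they do not, treatment and experiment cannot be told apart. The mice of all 4 groups carried no engineered allele, and the same tumor line was used throughout. Sets of 4 values are in the order untreated, ADU-S100, anti-LTβR and combination.

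Plasma cells were the kept cells with at least 1 unique molecular identifier (UMI) of Mzb1 or Derl3 and at least 20 UMIs of heavy-chain constant genes. There were 55, 43, 318 and 536 of them, 952 of 48858 kept cells in all. They held 477475, 482671, 2242781 and 2215368 UMIs outside the immunoglobulin genes, with medians of 9246, 10705, 6582 and 3635.5 per cell. Levels are given as CPM, with these UMIs as the total of a library, and carry exact Poisson 95% intervals that cover counting error only. All 8 plasma cell markers were detected in each library, among them Jchain, the joining chain of IgM and IgA, at 23351 to 30248 CPM. Of the gated cells, 882 lay in the cluster named plasma, 59 in the B cell cluster and 11 elsewhere. Summed T cell markers stood at 4.14 to 50.6 CPM, against 3071 to 3405 in T cells, with 7 of 8 at 0 in the ADU-S100 library and none at 0 elsewhere. Summed neutrophil markers were highest with ADU-S100 (216, 1079, 141 and 341 CPM, against 60425 to 84464 in neutrophils), and no more than 1 of 9 was at 0 in any library. The macrophage list reached 5146, 4792, 4249 and 4752 CPM with none of 12 at 0, mostly through Ly6c2 at 2917, 3387, 3323 and 3024 CPM. While Ly6c2 was lowest untreated, C1qb (457, 249, 105 and 313 CPM) and Lyz2 (668, 350, 410 and 590 CPM) were highest there. Summed markers of plasmacytoid dendritic cells stood at 811, 723, 713 and 788 CPM, with 4, 4, 1 and 2 of 8 at 0. Summed B cell markers (10 genes) stood at 961, 870, 1803 and 1335 CPM, highest with anti-LTβR, against 9744 and 10303 in B cells of the last 2 libraries, and 1, 3, 0 and 0 of them were at 0. The part of these other cell types' RNA in the results was not tested. Between 34 and 83 cell barcodes were shared by pairs of libraries.

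A plasma cell makes antibody chains in the endoplasmic reticulum (ER). There the chains pass through the Sec61 channel, lose their signal peptide, fold with chaperones and disulfide isomerases, and are degraded if they fail. The UPR matches the folding capacity of the ER to this load. Its sensors are IRE1α (Ern1), which splices Xbp1 mRNA, ATF6, and PERK, which acts through ATF4 and CHOP (Ddit3).

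Among these factors ATF6 and XBP1 are known to act through short promoter elements, so the elements and the genes that hold them are shown here beside the levels. RefSeq promoters (GRCm38.p6, 250 bases before to 50 after each start) were matched by symbol for 30 of the 40 genes. The ER stress response element (ERSE), which is CCAAT, any 9 bases, then CCACG, was sought on both strands. It was found in the promoters of 8 of these 30 genes, which were Hspa5, Hsp90b1, Dnajc3, Creld2, Calr, Canx, Pdia6 and Derl3, and in 0.137% of the 27025 genes with a promoter. A shorter form, ATTGG, any 1 base, then CCACG, was present in Dnajb11 and Herpud1, against 0.0444% of all genes. The UPR element TGACGTGG was present in Txndc5 and Txndc11, against 0.714%. None of the 30 promoters held more than 1 kind of these elements, and that of Hsp90b1 held 2 copies of the ERSE. The stretches printed here lie upstream of the start, with the element in capitals. Hspa5, Hsp90b1 and Creld2 are chaperone genes far higher in plasma cells, and Canx holds an element but was not called different between plasma cells and macrophages. Herpud1 shows the shorter form, and Txndc5 is the one of the 40 genes that differed most between IgG and IgM cells.
Hspa5, chr2:34772010-34772058, plus strand: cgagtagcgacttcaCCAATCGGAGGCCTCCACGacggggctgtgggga
Hsp90b1, chr10:86705623-86705671, minus strand: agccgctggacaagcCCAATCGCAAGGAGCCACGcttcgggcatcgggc
Creld2, chr15:88819505-88819553, plus strand, element on the opposite strand: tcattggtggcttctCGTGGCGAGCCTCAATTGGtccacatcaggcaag
Canx, chr11:50325785-50325833, minus strand: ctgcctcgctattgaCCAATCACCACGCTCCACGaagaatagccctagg
Herpud1, chr8:94386362-94386402, plus strand: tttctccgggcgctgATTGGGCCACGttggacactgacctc
Txndc5, chr13:38528030-38528067, minus strand: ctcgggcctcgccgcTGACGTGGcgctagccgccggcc
A match describes these letters only and is not a bound site.

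Plasma cells gave a larger share of their RNA to the 40 genes than any other cell type named here. The sum includes Mzb1 and Derl3, which chose the cells. The genes summed to 3.95% of UMIs outside immunoglobulin in untreated plasma cells (3.90 to 4.01%). The sum was 4.19% under ADU-S100 (4.13 to 4.25%), also 4.19% under anti-LTβR (4.17 to 4.22%), and 4.00% under both agents (3.97 to 4.02%). Without Mzb1 and Derl3 the 38 other genes summed to 3.498, 3.741, 3.758 and 3.566%, against no more than 0.932% in any other type. Plasmacytoid dendritic cells (pDC) followed at 0.812 to 0.946%, then macrophages and monocytes at 0.709 to 0.763% and conventional dendritic cells (cDC) at 0.548 to 0.602%. Natural killer (NK) cells stood at 0.458 to 0.532%, T cells at 0.428 to 0.473% and neutrophils at 0.382 to 0.404%. The ranges of neighbors overlapped only between NK cells and T cells. B cells outside the gate held 0.481% with anti-LTβR (105 cells) and 0.409% with the combination (190 cells). The untreated and ADU-S100 libraries had 5 and 8 such cells and are not compared. Clusters that could not be named held 40.9% of kept cells and are in none of these types. Among them were clusters of 5660 and 3947 cells whose closest class was macrophage or monocyte, each with 2 of its 12 markers up. The macrophages and monocytes compared here leave these cells out.

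**Figure D1:**
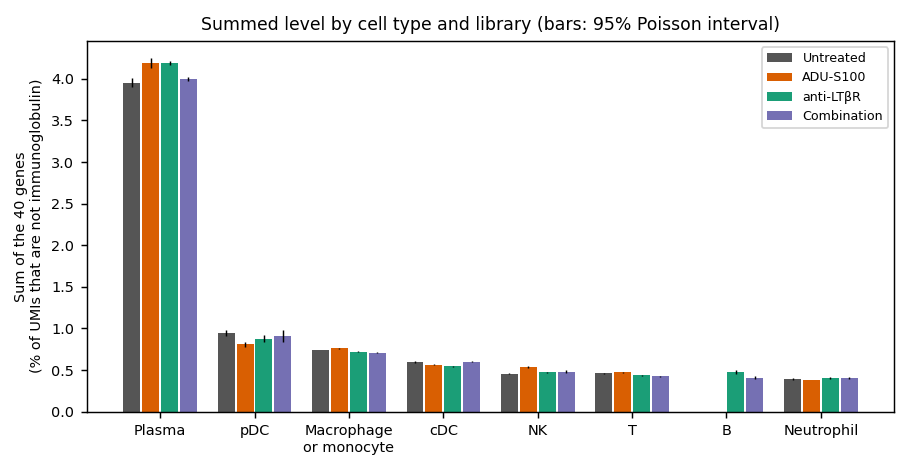
Sum of the 40 genes as a percent of UMIs that are not immunoglobulin (y axis), by cell type (x axis) and library (color), with 95% Poisson intervals; groups under 20 cells are left out. Plasma cells stand at 3.95 to 4.19% and every other type plotted under 1%, with pDC next at 0.812 to 0.946%.

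The first question was which of the genes set plasma cells apart from other leukocytes. UMIs were summed per library and cell type and compared by edgeR's quasi-likelihood test with library as a block, so the 4 libraries serve as replicates of the cell types. Mzb1 and Derl3 chose the cells and were not tested. Against T cells, all 38 tested members were higher in plasma cells, in a comparison that called 29.0% of 10587 genes higher and 29.5% lower. The median difference of the 38 was 3.19 (log2), against -0.01 over all genes tested, and the largest adjusted p was 0.00635, for Ern1. Against macrophages and monocytes 37 of 38 were higher and none was lower, where 30.1% of 11926 genes were called higher and 33.4% lower. The median of the 38 was 2.38, against -0.03 over all genes. The exception was Canx. The sums compared here do not separate more cells with a transcript from more transcripts per cell.

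The ER chaperones and their helpers were all higher against both types. Creld2, a secreted ER stress protein with isomerase activity, stood at 1007, 1427, 1107 and 1161 CPM in plasma cells, against 28.4 to 33.9 in T cells and 38.5 to 44.9 in macrophages. Its log2 difference from T cells was 5.65 (SE 0.13), the largest of the 38. Hsp90b1 encodes GRP94, an ER chaperone of the Hsp90 family that assists immunoglobulin chains. It stood at 8382, 7593, 8878 and 7294 CPM, against 393 to 473 in T cells, a difference of 4.63 (SE 0.10). Sdf2l1, a partner of BiP, stood at 369, 468, 417 and 461 CPM against 27.4 to 33.2 (4.21, SE 0.12). No plasma cell library overlapped the range of T cells for any of these 3 genes. Hspa5, the gene of BiP itself, which holds free heavy chains in the ER, stood at 3106, 3549, 2992 and 2864 CPM. Macrophages had 767 to 883 CPM of it and neutrophils 762 to 853, so its difference from macrophages was 2.02 (SE 0.07), less than from T cells (3.45, SE 0.10). Manf, a secreted ER protein, differed from T cells by 4.07, Hyou1, a large chaperone that exchanges BiP's nucleotide, by 3.65, and the BiP co-chaperones Dnajb9 and Dnajb11 by 3.25 and 2.91. Dnajc3, another co-chaperone, had the smallest difference of the group at 2.59.

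The lectin chaperones, which hold glycosylated chains, differed less. Calr stood at 1005, 1179, 1250 and 1200 CPM, against 278 to 301 in T cells (log2 difference 2.41, SE 0.10) and 647 to 730 in macrophages (0.85, SE 0.09). Canx stood at 348, 346, 384 and 343 CPM, against 206 to 215 in T cells (1.15, SE 0.10) and 354 to 418 in macrophages. The plasma cell and macrophage ranges of Canx overlapped, and its difference was -0.02 (SE 0.09, edgeR adjusted p = 0.893).

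Of the disulfide isomerases, which form and shuffle the bonds between cysteines, Txndc5 led. It stood at 616, 1229, 966 and 954 CPM, against 27.7 to 39.9 in T cells (5.18, SE 0.19) and 35.7 to 46.8 in macrophages (4.61, SE 0.23). Pdia4 stood at 991, 1142, 1306 and 1200 CPM against 53.0 to 59.0 in T cells (4.77, SE 0.11). Txndc11, which acts in the disposal of misfolded proteins, stood at 817, 671, 891 and 818 CPM against 56.5 to 67.7 (4.04, SE 0.11). Pdia6 differed from T cells by 3.61. Pdia3, which works with the lectin chaperones, stood at 651, 717, 720 and 710 CPM and had the smallest differences, 1.48 from T cells and 0.31 (SE 0.08) from macrophages, whose range was 565 to 651 CPM. The difference of Pdia3 from macrophages was 0.26 and no longer called without the combination library.

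The translocon and signal sequence receptor genes, which carry new chains across the ER membrane, were all higher against both types. Ssr4, a subunit of the signal sequence receptor, stood at 2421, 3276, 2429 and 2570 CPM, against 130 to 154 in T cells (4.64, SE 0.11) and 217 to 248 in macrophages (3.61, SE 0.09). The 3 partners of Ssr4 differed from T cells by 3.26 (Ssr2), 2.80 (Ssr3) and 1.95 (Ssr1). Ssr1 had the smallest difference, at 201, 153, 205 and 170 CPM against 60.5 to 63.4 in T cells. The channel genes Sec61b, Sec61a1 and Sec61g differed by 2.97, 2.74 and 2.10. Signal peptidase cuts off the signal peptide, and its 4 genes were higher as well. Sec11c, a catalytic subunit, stood at 1468, 1525, 1454 and 1447 CPM, against 104 to 147 in T cells (3.98, SE 0.11) and 79.8 to 91.7 in macrophages (4.19, SE 0.09). Spcs3, Spcs1 and Spcs2 differed from T cells by 3.13, 3.07 and 2.83.

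The tested genes of ER-associated degradation, which sends misfolded proteins to the proteasome, differed from T cells by 1.18 to 4.66. Herpud1, which organizes the export complex, stood at 712, 723, 587 and 654 CPM against 27.7 to 45.1 in T cells (4.66, SE 0.14). Edem1, which recognizes mannose-trimmed chains, stood at 1307, 1349, 1505 and 1406 CPM against 129 to 135 (3.80, SE 0.10). Selenos and Derl1, membrane proteins of the export complex, differed by 3.28 and 2.61. Derl2 differed least, at 50.3, 53.9, 53.1 and 50.1 CPM against 27.7 to 33.0 (1.18, SE 0.15). Derl3, a gate gene given without a test, stood at 287, 448, 347 and 330 CPM against 0 to 0.886 in T cells.

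Lman1, the receptor that carries glycoproteins from the ER to the Golgi, stood at 501, 460, 523 and 533 CPM against 28.9 to 36.7 in T cells (4.33, SE 0.12). Mzb1, a partner of GRP94 in B lineage cells and the other gate gene, stood at 4277, 4021, 3994 and 3988 CPM. Outside plasma cells, Mzb1 was found in pDC at 125 to 146 CPM and in B cells outside the gate at 138 and 247 CPM.

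Among the stress sensors and transcription factors, Atf6 differed most and Ddit3 least from T cells and from macrophages, by 2.75 (SE 0.09) and 0.73 (SE 0.20) from the latter. Atf6 stood at 1110, 1189, 1211 and 1351 CPM, against 154 to 192 in T cells (3.25, SE 0.10). Atf4 stood at 237, 211, 223 and 233 CPM against 93.9 to 113 (1.52, SE 0.11). Ern1 stood at 461, 199, 458 and 461 CPM against 134 to 222 (1.62, SE 0.31), and its ADU-S100 library lay within the T cell range. NK cells had 293 to 571 CPM of Ern1, a range that overlapped that of plasma cells. Ddit3, the gene of the proapoptotic factor CHOP, was low in plasma cells at 33.5, 24.9, 18.3 and 15.3 CPM, from 12 to 41 UMIs per library, against 12.7 to 16.6 in T cells (0.95, SE 0.23). Neutrophils held more Ddit3 in each library, at 102, 197, 192 and 159 CPM. Ell2, an elongation factor that favors the secreted form of heavy-chain mRNA, also stood above plasma cells in neutrophils, at 1261, 1396, 1383 and 1495 CPM against 984, 1115, 1111 and 996. These neutrophil and NK comparisons were not tested.

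**Figure D2:**
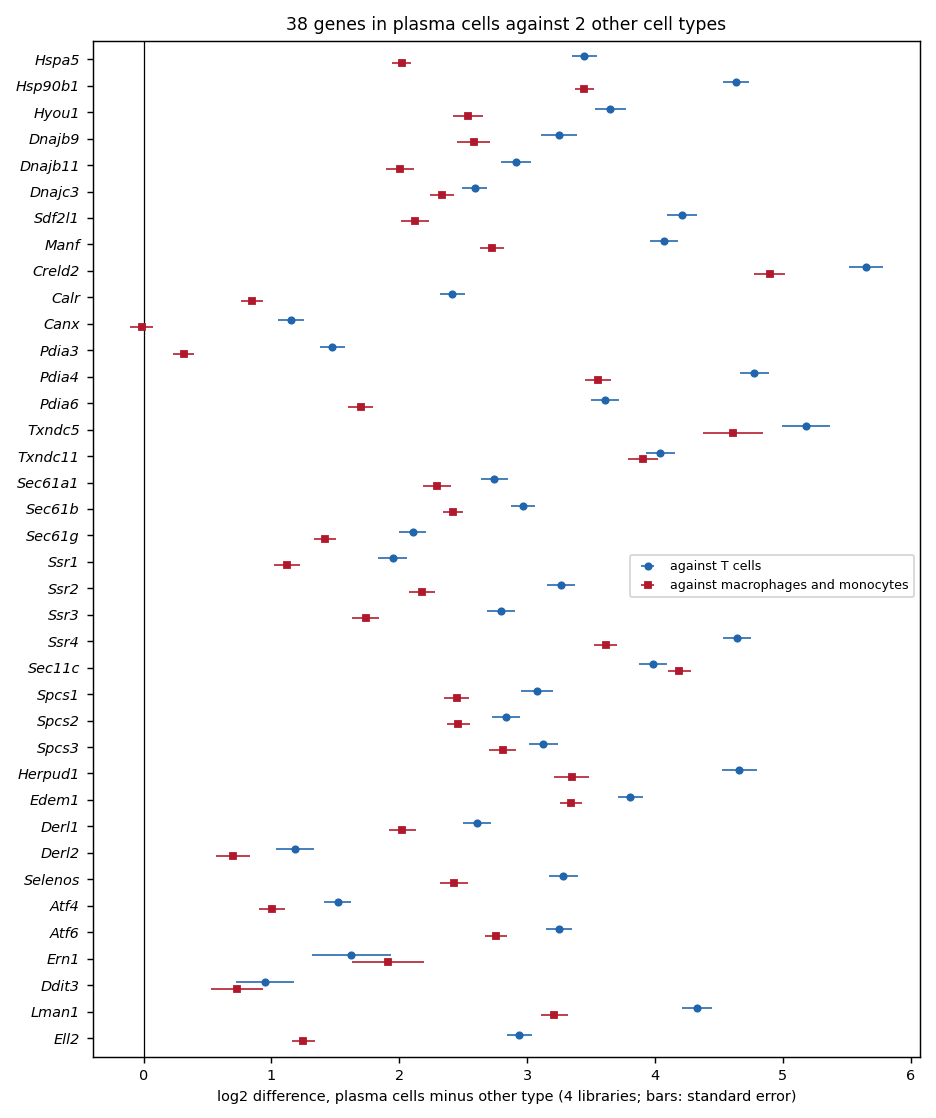
log2 difference of each of 38 genes (y axis), plasma cells minus T cells (blue circles) or minus macrophages and monocytes (red squares), with standard errors from 4 libraries; Mzb1 and Derl3 are left out. Differences from T cells run from 0.95 (Ddit3) to 5.65 (Creld2), and against macrophages Canx lies at -0.02.

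With 20 or more B cells outside the gate in only 2 libraries, no test was run against them and values only are given. The summed log2 ratio of plasma cells to B cells was 3.12 in the anti-LTβR library (3.06 to 3.19) and 3.29 in that of both agents (3.22 to 3.37). Over the 38 genes that did not choose the cells it was 3.01 (2.94 to 3.08) and 3.22 (3.14 to 3.29). Creld2 differed by 4.92 (4.15 to 5.83) and 5.71 (4.73 to 6.92), and Ern1 by 5.03 (3.80 to 6.65) and 4.38 (3.39 to 5.59), on 5 and 8 Ern1 UMIs in B cells. Among genes with 100 UMIs or more over both cell types and more than 3 in B cells, Canx had the smallest ratio in both libraries (0.60 and 0.88), followed by Atf4 with anti-LTβR (0.70) and Ell2 with the combination (1.26). Ddit3 was under that floor, at 18.3 and 15.3 CPM in plasma cells against 5.62 and 11.1 in B cells, on 2 and 4 UMIs. The 34 and 24 gated cells that lay in the B cell cluster were closer to B cells than to plasma cells. Their summed level was 0.537 and 0.732%, against 4.57 and 4.16% in the plasma cluster, with a median of 36 and 28.5 heavy-chain UMIs against 2277 and 1200. They also held 1715 and 1613 CPM of the B cell gene Ms4a1, against 51.7 and 59.3.

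Other genes of the pathway, also listed with earlier results of these data known, followed the same direction in most cases. Of 69 further genes, 65 were tested against T cells, and 60 were higher in plasma cells and none lower, beside 29.0% and 29.5% of all genes. Against macrophages 68 were tested, 62 were higher and 4 were lower, beside 30.1% and 33.4%. All 10 further genes of ER-associated degradation and all 9 tested genes of targeting and translocation were higher against both types. Of 14 vesicle transport genes, 14 were higher against T cells, and 13 were higher and 1 lower against macrophages. Of 12 N-glycosylation genes, 11 were higher against T cells and 12 against macrophages. Folding and redox genes were higher in 8 of 10 against T cells, and in 9 of 11 with 2 lower against macrophages. UPR regulators were higher in 8 of 10 against T cells, and in 9 of 12 with 1 lower against macrophages. Fkbp11, a prolyl isomerase of the ER, had the largest difference from T cells (9.16, SE 0.17), followed by the peroxiredoxin Prdx4 (5.92) and the UPR factor Xbp1 (5.74). The lowest were Mbtps2 (-0.42, edgeR adjusted p = 0.0754), Ero1a (-0.13, 0.583) and Uggt1 (0.03, 0.874), none of which was called. Against macrophages the highest were Fkbp11 (9.84), Chac1 (5.15), an ATF4 target that degrades glutathione, and Creb3l2 (4.80), and the lowest were the stress factor Atf3 (-2.15), Pdia5 (-1.65) and Ero1a (-0.66).

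The next question was whether the agonists changed these genes within plasma cells. With 1 library per group no test was possible, and a gene was read as past 1.5-fold or not where both libraries together held 100 UMIs or more of it. The sum of the 40 genes moved little, with log2 ratios to untreated of 0.08 (0.05 to 0.11) under ADU-S100, 0.08 (0.06 to 0.11) under anti-LTβR and 0.02 (-0.01 to 0.04) under both agents. The combination differed from each single agonist by -0.07. The signs of all but the anti-LTβR to combination ratio changed with the choice of cells or total, so no direction is read. Beside it, summed cell division genes stood at 940, 754, 637 and 534 CPM in plasma cells, mitochondrial UMIs at 1.70 to 1.85% and ribosomal protein UMIs at 11.3 to 12.4%.

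With ADU-S100, 2 of 38 members were at least 1.5-fold higher than untreated and 1 was lower, where 7.67% of 1487 genes over the same floor were higher and 8.81% lower. One of the higher genes, Derl3, is a gate gene, and without both gate genes the count was 1 of 36 higher and 1 lower. Txndc5 reached 2.0-fold and Derl3 1.56-fold the untreated level, and Ern1 was 0.432 times it. The other 35 lay between -0.56 and 0.51 on the log2 scale. With anti-LTβR, 1 of 39 was higher and none lower, where 9.54% of 4128 genes were higher and 4.26% lower. With the combination the counts were the same, where 7.98% of 4111 genes were higher and 3.24% lower. The 1 gene was Txndc5 in both cases, at 1.57-fold and 1.55-fold. These 3 comparisons share the untreated library with its 55 cells. Against ADU-S100 the combination had 1 of 39 higher, Ern1, and none lower, where 17.9% of 4083 genes were higher and 4.41% lower. Against anti-LTβR no member of 39 was past the fold, where 2.55% of 5724 genes were higher and 2.03% lower, and the 39 ratios lay between -0.28 and 0.16. Ddit3 was under the floor in every comparison.

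**Figure D3:**
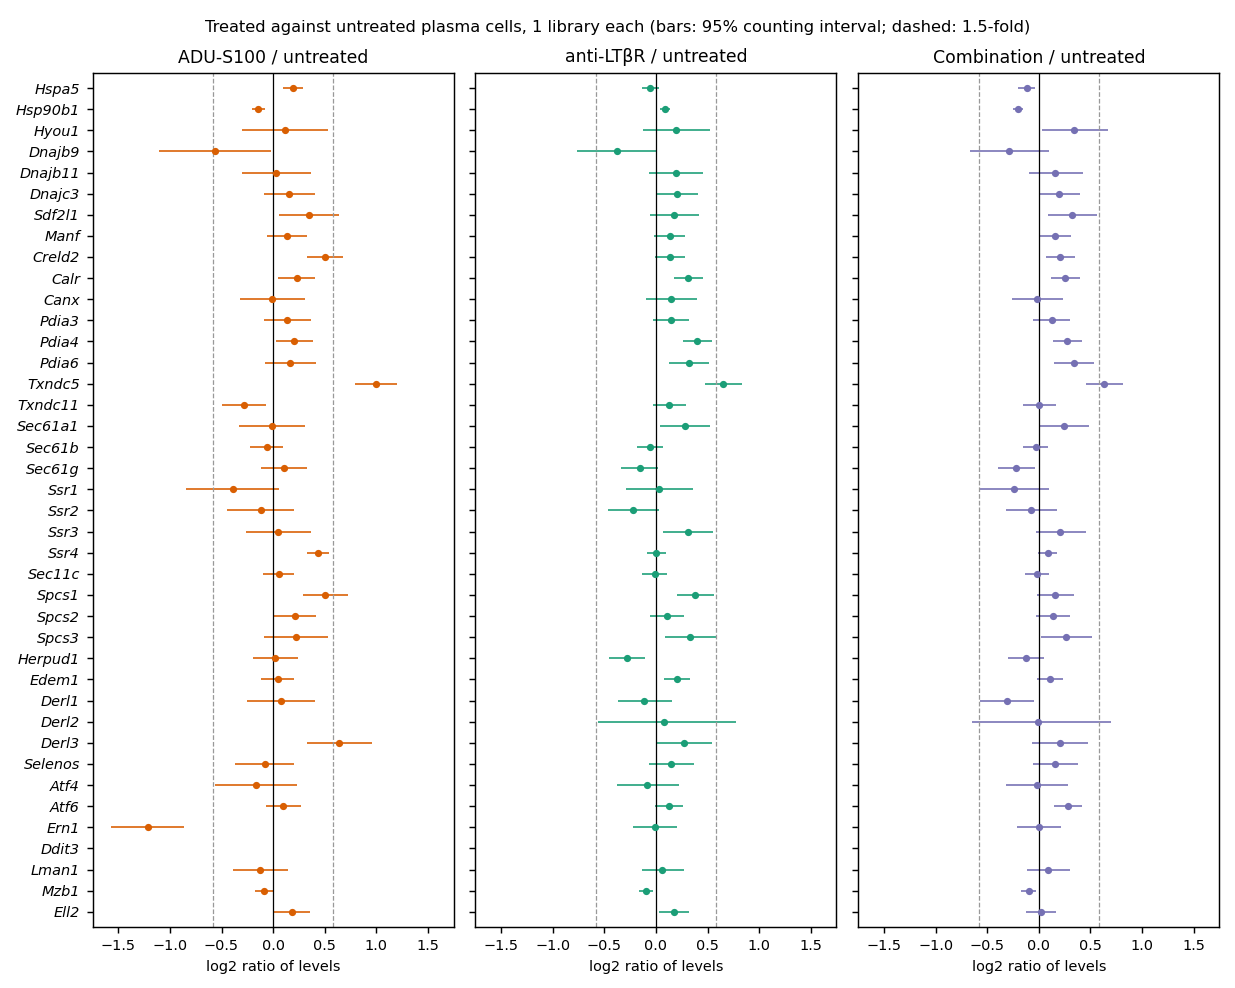
log2 ratio of each gene's level in plasma cells (y axis: genes in role order) in each treated library over untreated, 1 library each, with exact 95% counting intervals and dashed lines at 1.5-fold; genes under 100 UMIs have no point. Txndc5 lies past the line in all 3 panels (2.0, 1.57 and 1.55-fold), and Ern1 past it on the low side with ADU-S100 alone (0.432 times).

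Ern1 was low in 1 library. It stood at 461 CPM untreated (402 to 526) and 199 CPM in the ADU-S100 library (161 to 243). It was 458 CPM after anti-LTβR (430 to 487) and 461 after both agents (433 to 490). The 3 other libraries overlapped one another and the interval of ADU-S100 lay below all of them. The ADU-S100 value rests on 96 UMIs, of which the highest cell gave 12.5%, and 81.4% of its cells had a UMI. The combination was 2.32-fold higher than ADU-S100. Under all alternatives tried the ratio of ADU-S100 to untreated stayed below 1, between 0.353 and 0.574, but with cells thinned to 1000 UMIs the gene fell under the floor for that comparison. In the same ADU-S100 library T cells had 222 CPM, against 134 to 165 in the other 3. NK cells had 571 CPM there, against 293 untreated, 456 after anti-LTβR and 463 after both agents. Neutrophil markers were also highest in the ADU-S100 plasma cells, and neutrophils had 33.0 to 48.2 CPM of Ern1. The part of that RNA in the Ern1 level was not tested.

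Txndc5 was lowest in the untreated library and depended on isotype, taken as the class with most heavy-chain UMIs. It stood at 616 CPM untreated (547 to 690) and 1229 CPM in the ADU-S100 library (1132 to 1332). It was 966 CPM after anti-LTβR (926 to 1007) and 954 after both agents (914 to 996). In IgM cells it stood at 1666, 2850, 1777 and 1902 CPM, in IgA cells at 2095, 1890, 2861 and 2684, and in IgG cells at 222, 625, 469 and 357. Each library's IgG interval lay below its IgM and IgA intervals. IgM cells numbered 6, 8, 91 and 153, IgG cells 44, 30, 205 and 337, and IgA cells 5, 5, 22 and 46, so the untreated and ADU-S100 values of IgM and IgA rest on few cells. In the 2 libraries with 20 or more cells of both classes, the log2 ratio of IgG to IgM was -1.92 under anti-LTβR (-2.06 to -1.78) and -2.41 under both agents (-2.57 to -2.26).

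In both libraries Txndc5 was the lowest of the members by this ratio, and among all genes over the floor it was the 53rd lowest of 3354 under anti-LTβR and the 9th of 3351 under both agents. The IgM cells of the 2 libraries included 33 and 21 cells of the B cell cluster, against 1 and 3 of the IgG cells. With anti-LTβR 7 of 39 members were at least 1.5-fold higher in IgG than in IgM cells and 1 was lower, where 9.99% of 3354 genes were higher and 16.1% lower. With the combination none was higher and 2 were lower, where 5.37% of 3351 genes were higher and 9.13% lower. The second lower gene was Calr at -0.63. Within the plasma cluster, where 58 and 130 IgM cells and 203 and 332 IgG cells remained, these counts changed direction with anti-LTβR. There no member of 39 was higher and 6 were lower (Txndc5, Creld2, Sdf2l1, Dnajb9, Dnajc3 and Derl3), where 9.28% of 2975 genes were higher and 9.61% lower. Without the gate genes the lower count was 5 of 37. With the combination none of 38 was higher and 4 were lower (Txndc5, Calr, Pdia6 and Ssr1), where 5.44% of 3143 genes were higher and 6.75% lower. The ratio of Txndc5 was -2.51 (-2.65 to -2.36) and -2.61 (-2.76 to -2.46) in these cells, the 5th and 4th lowest of all genes over the floor. Txndc11, a relative of Txndc5, was higher in IgG cells in both, by 0.94 (0.76 to 1.13) and 0.58 (0.41 to 0.75), and by 0.41 in each within the plasma cluster. Ern1 differed by 0.22 (0.004 to 0.45) and 0.58 (0.35 to 0.80), and by -0.38 (-0.60 to -0.15) and 0.38 (0.16 to 0.61) within the plasma cluster, so no direction is read for it. Within IgG cells alone Txndc5 was still above untreated, by 2.81-fold with ADU-S100, 2.11-fold with anti-LTβR and 1.61-fold with the combination. Over all isotypes, Txndc5 with ADU-S100 fell under the floor in cells thinned to 1000 UMIs, and the call for anti-LTβR and for the combination was lost with doublets kept (1.46-fold both) and with gated cells of the plasma and B clusters (1.499-fold and 1.478-fold). Ern1 within IgG cells stood at 477, 192, 483 and 514 CPM.

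**Figure D4:**
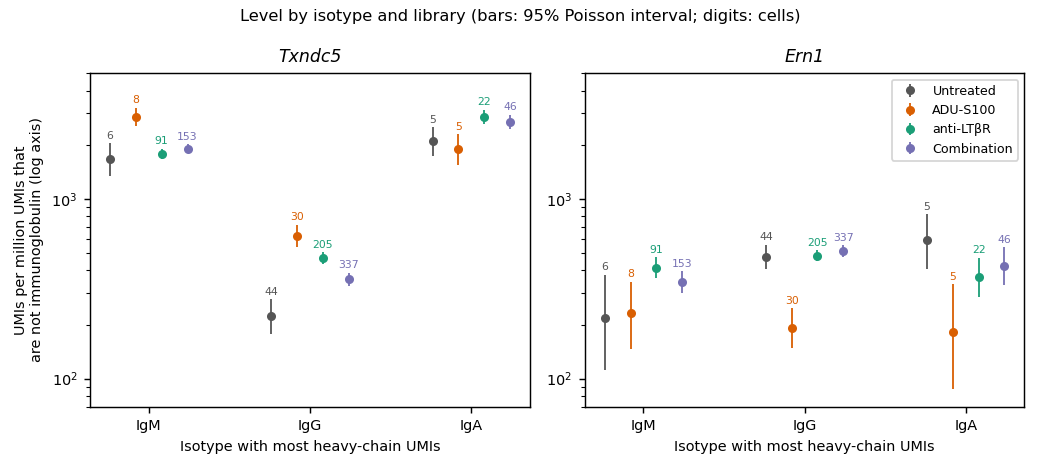
Levels of Txndc5 (left) and Ern1 (right) in plasma cells by isotype (x axis) and library (color), as CPM outside immunoglobulin genes on a log axis, with 95% Poisson intervals and the number of cells above each point. IgG cells hold 222 to 625 CPM of Txndc5 against 1666 to 2861 in IgM and IgA cells, and Ern1 in IgG cells is 192 CPM with ADU-S100 against 477 to 514 elsewhere.

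Derl3 stood at 287 CPM untreated (241 to 339) and 448 CPM in the ADU-S100 library (390 to 511). It was 347 CPM after anti-LTβR (323 to 372) and 330 after both agents (306 to 355). A single cell gave 24.1% of its UMIs with ADU-S100, and 18.2% untreated. Since Derl3 is also a gate gene its level is a description, and it fell under 1.5-fold with doublets kept (1.49) and in IgG cells (1.45). Among members inside the fold, the widest ratios with ADU-S100 were -0.56 for Dnajb9 (-1.11 to -0.02, on 123 UMIs over both libraries), 0.51 for Spcs1 and 0.50 for Creld2. A single cell gave 24.4% of the Creld2 UMIs with ADU-S100, and 16.01% untreated. With anti-LTβR they were 0.40 for Pdia4, 0.38 for Spcs1 (0.21 to 0.56) and -0.38 for Dnajb9 (-0.76 to 0.01).

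**Figure D5:**
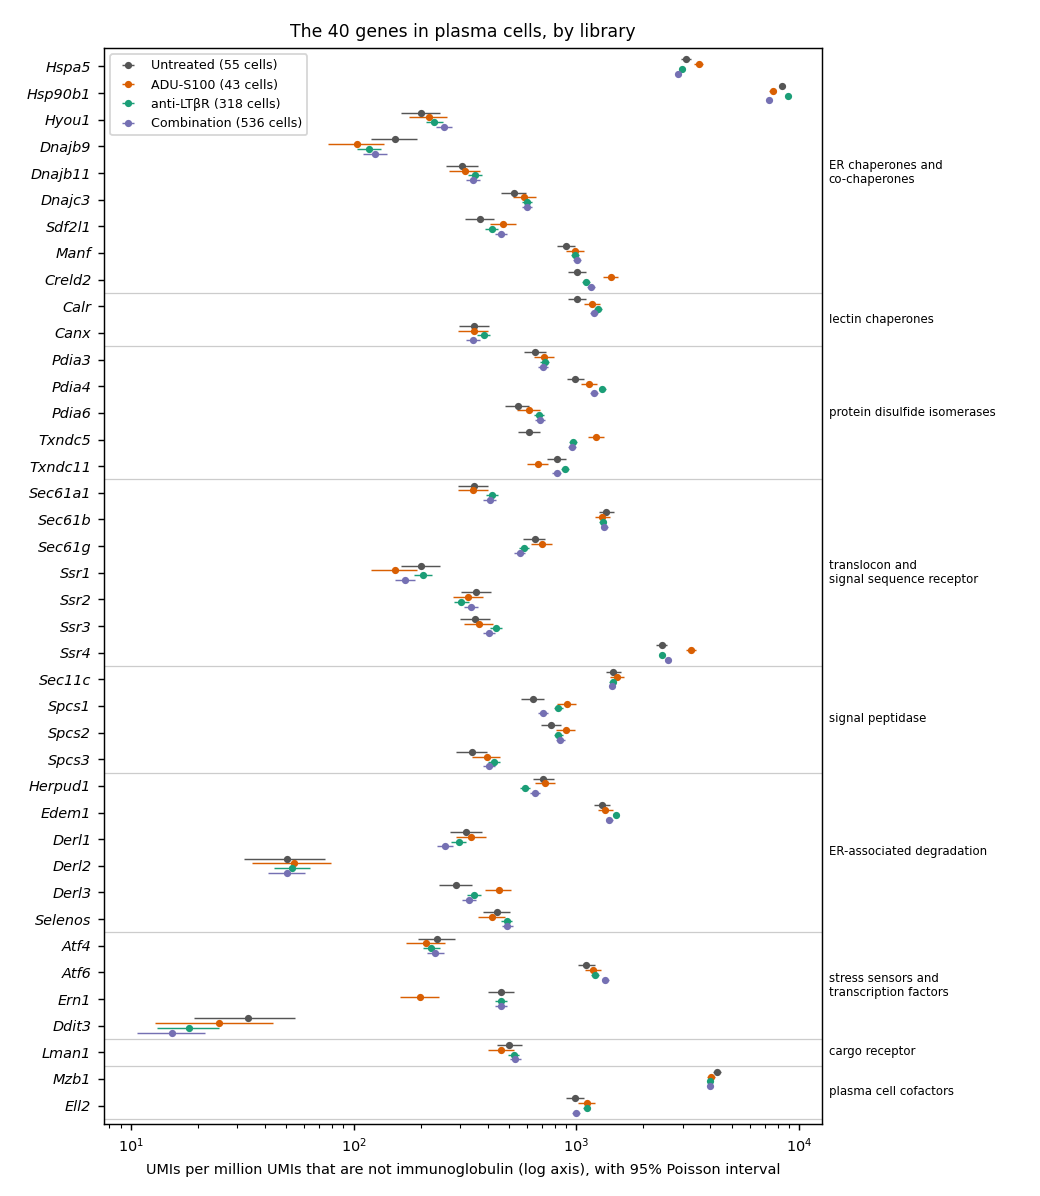
Level of each of the 40 genes in plasma cells (y axis: genes by role) in CPM outside immunoglobulin genes (log axis), by library (color), with 95% Poisson intervals. Most genes sit within 1.5-fold in all 4 libraries; Txndc5 (616 to 1229 CPM) and Ern1 (199 to 461 CPM) spread most widely among genes past 100 CPM.

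The last question was whether cells with more immunoglobulin RNA gave more of their other RNA to these genes. Across the cells of a library, the Spearman correlation of the immunoglobulin share of UMIs with the members' share of the other UMIs was 0.48, 0.44, 0.24 and 0.42 (55, 43, 318 and 536 cells). Over the 38 genes other than Mzb1 and Derl3 it was 0.47, 0.50, 0.25 and 0.43. The gate used heavy-chain UMIs and so bounds the immunoglobulin share from below. Both shares come from the same cells and depend on depth, and no p is given. Without gated cells outside the plasma cluster it was 0.37, 0.43, -0.09 and 0.32, so no relation is read with anti-LTβR. In that library the correlation was 0.68 among 91 IgM cells, of which 33 lay in the B cell cluster, and -0.10 among the 58 IgM cells of the plasma cluster. Among 205 IgG cells it was also -0.10, and among 22 IgA cells it was 0.37. With the combination it was 0.47 among 153 IgM cells and 0.17 among the 130 of the plasma cluster, and 0.37 among 337 IgG cells and 0.35 among the 332 of the plasma cluster. Among its 46 IgA cells it was 0.49. Among untreated and ADU-S100 IgG cells it was 0.35 and 0.31, and 0.25 and 0.29 in the plasma cluster. The pooled level of untreated IgG cells did not follow the sign of their correlation, at 3.48% in those with the lowest immunoglobulin share and 3.35% in those with the highest. Nor did that of all gated cells with anti-LTβR, at 3.78% and 3.76%. Among the anti-LTβR cells of the plasma cluster these levels were 5.00% and 3.74%, and among the anti-LTβR IgG cells 4.77% and 3.71%. In the plasma cluster they were 3.40% and 4.78% untreated, and 3.22% and 4.85% with ADU-S100. With the combination they were 3.52% and 4.45% there.

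The genes differed in this respect, which is given as a description without a test. Within each library, the 19, 15, 106 and 179 cells with the highest immunoglobulin share were set against as many with the lowest, and 29 members held 100 UMIs or more over both sets in all 4 libraries. Of these, 15 were higher in the upper set in each library and none was lower in each, where 26.6% of 334 genes were higher and 28.7% lower. Ssr4 differed most, by 2.31, 2.19, 1.65 and 1.69 on the log2 scale. All 4 signal peptidase genes were among the 15, with Spcs3 at 1.62, 1.39, 0.66 and 0.79, as were Herpud1 at 0.79, 1.15, 0.93 and 1.16 and Txndc5 at 1.62, 0.73, 1.02 and 1.10. Hspa5 was not, since it fell by 0.31 with anti-LTβR but stood 0.84, 1.55 and 0.35 higher in the other 3. Within the plasma cluster, 24 members could be compared, of which 6 were higher in each library (Txndc5, Ssr4, Sec11c, Spcs2, Herpud1 and Selenos), where 19.9% of 307 genes were higher and 25.1% lower, so the count is near the background. The 1 lower member was Mzb1, a gate gene, from which nothing is read. There Ssr4 differed by 2.06, 2.32, 1.17 and 1.47. Hspa5 was mixed there, at 0.88, 1.25, -0.80 and 0.24, as was Hsp90b1 at 0.50, 0.85, -1.07 and -0.02.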

How the data were processed

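Single-cell RNA was measured with a 10x 5′ kit in 4 libraries of sorted CD45+ tumor cells, 1 per treatment. The deposited matrices hold whole-number UMI counts that the authors made with Cell Ranger (8.0.1 per the file headers; 7.1.0 per the labels) on mm10, with no normalization. Libraries held 8730 to 16322 cells and 52109958 to 85855398 UMIs.

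Cells with 300 to 5000 genes and at most 6% mitochondrial UMIs were kept. The cells with the highest scrublet scores (scanpy 1.11.5), 0.4% per 1000 cells, were removed as doublets, since its automatic threshold marked no more than 1 cell per library. Cells were clustered (Leiden, resolution 1, 35 clusters) without the 40 genes and without immunoglobulin genes, and clusters were named from marker lists. The authors' cell names are not used here, and differences from the study may come from these rebuilt names. The 40 genes and all lists were chosen with earlier results of these data known.

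Immunoglobulin genes (390 features) were left out of totals. Cell types were compared with edgeR 4.0.16 (filterByExpr, TMM, quasi-likelihood test, library as block, Benjamini-Hochberg over all genes, threshold 0.05), with DESeq2 1.42.0 as an alternative. Each library is a pool of tumors from 1 treatment group, and the labels do not tell apart the animals within it. With library as a block, these p-values measure how much the difference between cell types varied over the 4 libraries. These libraries also differ in treatment. The test was checked on simulated counts with known changes. Treatments, with 1 library each, were compared without a test, as ratios with exact binomial 95% intervals and a floor of 100 UMIs. UMIs and cells are not replicates of a treatment. All 40 genes were accounted for by role. Per role, up to 3 genes with the largest difference from T cells and the one with the smallest were named with values, as were genes past 1.5-fold between treatments and the 3 highest and lowest other pathway genes. Members named for isotype and immunoglobulin load were chosen after their values were seen. Alternatives changed the gate, the doublets, the total, cell weights, depth, isotype, floors, tools and libraries.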

Additional observations from a re-analysis of the deposited data

Results flagged for a closer look

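Ern1 moved in opposite directions in plasma cells and in other lymphocytes under the same contrast. From ADU-S100 to the combination its log2 ratio was 1.21 in plasma cells and -0.73 in T cells. From untreated to ADU-S100 it was -1.21 in plasma cells and 0.96 in NK cells. NK cells also held more Ern1 after anti-LTβR and after both agents, at 456 and 463 CPM against 293 untreated. With 1 library per group these differences were not tested.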

How the results depend on the processing

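Values here are log2 ratios unless they are counts of genes, percent shares or correlations, and the cause of each shift was not tested. The 38 members called against T cells stayed at 38 and the 37 called against macrophages and monocytes at 36 to 37 when any 1 library was left out. Canx against macrophages, -0.02 in the report, ranged from -0.048 (without the combination library) to 0.018 (without the LTbR agonist library) with 1 library left out. It was 0.083 with cell types named per cell, 0.027 with a gate of 50 heavy-chain UMIs, 0.032 with gated cells of the plasma and B clusters and 0.025 with those of the plasma cluster. Of the calls against macrophages, those of Pdia3 (no filter; without the combination library) and Ddit3 (cell types named per cell) were lost. Plasma cells against B cells gave 3.02 (anti-LTβR) and 3.19 (combination) with doublets kept, 2.34 and 2.47 with immunoglobulin in the total, and 3.13 for the combination in the plasma cluster.

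Members past 1.5-fold numbered 3, 1, 1 and 1 for ADU-S100, anti-LTβR and combination against untreated and combination against ADU-S100. These became 1, 5, 3 and 4 in thinned cells, or 10.0, 14.7, 8.33 and 11.1% of members over the floor, where 15.5, 19.2, 16.8 and 27.6% of all genes over it were past the fold (16.5, 13.8, 11.2 and 22.3% in the report's setting). With gated cells of the plasma and B clusters, and with doublets kept, both anti-LTβR and the combination had 0 (all genes: 14.4 and 13.3%, and at least 13.8% with doublets). All deposited cells gave 5, 2 and 2 against untreated (all genes: 17.8, 16.1 and 14.6%), and a floor of 30 UMIs gave 2 for each of the last 3 comparisons (23.5, 22.4 and 31.4%). IgG cells gave 2 for anti-LTβR and 2 against ADU-S100 (13.4 and 19.1%), and the plasma cluster without the gate gave 2 for anti-LTβR (12.3%). In each of these settings the share of members past the fold was below that of all genes.

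The summed ratio of ADU-S100 to untreated (0.08) was -0.043 with immunoglobulin in the total, 0.11 with equal weight per cell, 0.044 thinned, 0.018 in the plasma and B clusters, 0.13 without the gate, 0.042 with doublets, 0.32 in all deposited cells and 0.0046 in the plasma cluster. In that order, anti-LTβR (0.08) gave 0.11, 0.14, 0.11, 0.025, 0.26, -0.0066, 0.26 and 0.13, and also 0.16 at the gate of 50 and 0.22 in IgG cells. The combination (0.02) gave 0.12 with equal weight, 0.087 thinned, 0.053 at the gate of 50, -0.046 in the plasma and B clusters, 0.044 without the gate, -0.067 with doublets, 0.24 in all deposited cells and -0.009 in the plasma cluster. Against ADU-S100 (-0.07) it gave 0.054 with immunoglobulin, 0.0041 with equal weight, 0.042 thinned, -0.023 at the gate of 50, -0.11 with doublets and -0.014 in the plasma cluster. Against anti-LTβR (-0.07) it gave -0.10 with immunoglobulin, -0.021 with equal weight, -0.026 thinned, -0.11 at the gate of 50, -0.22 without the gate, -0.20 in IgG cells, -0.025 in all deposited cells and -0.14 in the plasma cluster. In the plasma cluster the correlation with immunoglobulin share was -0.087 (anti-LTβR) and 0.32 (combination), and the 15 members higher in the upper immunoglobulin set of each library became 6. There the members higher in IgG than IgM cells went from 7 to 0 and the lower ones from 1 to 6 with anti-LTβR, and the lower ones from 2 to 4 with the combination. With anti-LTβR the ratio of Ern1 turned from 0.22 to -0.378 and that of Calr from 0.11 to -0.368.

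No paired analysis was possible because each treatment has 1 library. Library was a block in the tests of cell types, and without that block the counts of 38 and 37 were the same. Keeping only gated cells of the plasma cluster was an alternative added after seeing the data. Depth limits Ddit3 and, with 55 and 43 plasma cells, the untreated and ADU-S100 values.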
